A study of Mus musculus with 8 samples.

Results

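Immunoglobulin gene segments and constant regions were examined by RNA sequencing in 8 tumors from the mouse cecum, a model of GIST (gastrointestinal stromal tumor), which arises in the wall of the gut. The genes were chosen by name: V, D and J segments of the heavy (Igh), kappa (Igk) and lambda (Igl) loci, the kappa and lambda constant genes, and the heavy constant genes of IgM, IgE and the IgG subclasses. Of 37980 rows in the table, 258 carried such a name, and 222 of these, with 221 symbols, had a nonzero value in at least 2 of the 8 libraries. They comprised 106 heavy V, 3 heavy J and 7 heavy constant rows, 100 kappa V rows and 1 kappa constant row, and 3 lambda V and 2 lambda constant rows. The heavy constant genes Igha and Ighd, which encode the heavy chains of IgA and IgD, were not analysed here.

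The study asked how these tumors differ after ablation of Etv1, an ETS transcription factor of the tumor lineage. The tumors came from 4 samples labelled tamoxifen and 4 labelled vehicle. All 8 shared the C57BL/6 strain and 3 engineered loci. They carried Kit V558Delta/+, a mutant receptor allele over a normal one, together with Etv1 flox/flox, so that both copies could be recombined. The third locus was Rosa26 CreERT2/CreERT2, in which a Cre that tamoxifen activates is placed at a locus active in most cell types, blood cells included. The vehicle tumors therefore had the same alleles, and an effect of tamoxifen itself and one of Etv1 recombination cannot be told apart. Etv1 had 34.9, 19.7, 31.4 and 17.4 FPKM in tamoxifen replicates 1 to 4 and 34.6, 51.1, 40.4 and 38.6 FPKM in vehicle replicates 1 to 4 (limma adjusted p = 0.1295). Tamoxifen replicate 1 thus lay within the vehicle range. For age, dose and the time between dosing and collection, nothing is given in the sources used here. No label says whether each replicate was its own mouse, so the tests weigh differences against the spread of these samples, which may be technical.

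Antibodies are made by cells of the B lineage. A developing B cell joins 1 V, 1 D and 1 J segment of the heavy locus and 1 V and 1 J segment of a light chain locus, and the joined exon is spliced to a constant gene in the mRNA. IgM is the first class made, and later switching replaces its constant gene with that of an IgG, IgE or IgA. Plasma cells, which are abundant in the gut lining, hold very large amounts of these mRNAs, whereas resting B cells hold far less. In the gut most plasma cells make IgA, whose dimers are held together by the J chain protein (gene Igj, unrelated to J segments) and carried across the epithelium by the receptor Pigr.

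The J segments are shown because 2 of them dominated the table. Values are FPKM, the fragments assigned to a gene divided by the length of its transcripts and the size of the library, so a very short gene receives a large value from few fragments. The heavy J segments lie on chromosome 12 and the kappa ones on chromosome 6. The sequences below are GENCODE M21 transcripts, 5′ to 3′, with capitals on the motif TGGGGNNNNGGNAC in heavy and TTCNGNNNNGGNAC in kappa segments. The motifs cover the codon for the tryptophan (heavy) or phenylalanine (kappa) that marks J segments and the bases after it.
Ighj1 (53 bases): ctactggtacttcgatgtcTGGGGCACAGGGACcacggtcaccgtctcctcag
Ighj4 (54 bases): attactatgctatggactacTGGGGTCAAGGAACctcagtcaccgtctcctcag
Ighj3 (48 bases): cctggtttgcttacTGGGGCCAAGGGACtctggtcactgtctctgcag
Ighj2 (48 bases): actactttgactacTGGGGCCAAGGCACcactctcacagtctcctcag
Ighj2 (54 bases): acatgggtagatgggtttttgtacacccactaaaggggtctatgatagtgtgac
Igkj1 (38 bases): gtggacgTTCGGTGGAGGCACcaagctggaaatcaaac
Igkj3 (38 bases): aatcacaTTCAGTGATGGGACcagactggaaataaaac

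Ighj1 and Ighj4 end in the same 16 bases, gtcaccgtctcctcag. The table's row for Ighj2 has a locus of 54 bases, the length of the second Ighj2 transcript, which does not contain the motif on either strand. The row for Igkj3 has a locus of 36 bases, whereas the Igkj3 transcript shown has 38. Searched on both strands, the heavy motif was found in the first 54 bases of 96 of 141647 transcripts (0.0678%) and the kappa motif in 181 (0.128%).

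The shortest rows had no values, and 2 of the next shortest had the highest. All 26 matching rows shorter than 50 bases were listed at 0 in every library: the 20 heavy D segments (10 to 29 bases), the 5 kappa J segments (36 to 43 bases) and Ighj3 (48 bases). The 3 rows of 53 or 54 bases were the 3 heavy J rows with values. Ighj4 (chromosome 12, 114666725 to 114666778 in mm9) had 35811, 184011, 127190 and 376066 FPKM in tamoxifen replicates 1 to 4 and 520578, 210044, 107205 and 210384 FPKM in vehicle replicates 1 to 4. Ighj1 (chromosome 12, 114667992 to 114668044) had 16325, 250366, 87658 and 161870 FPKM in tamoxifen tumors and 387676, 148040, 67827 and 106155 FPKM in vehicle tumors. For both, the lowest library was tamoxifen replicate 1 and the highest vehicle replicate 1, and the other 6 libraries of the groups were interleaved. The log2 fold change of FPKM + 1 was -0.74 for Ighj4 (SE 0.76, limma adjusted p = 0.603) and -0.71 for Ighj1 (SE 0.89, adjusted p = 0.675).

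The ratio of Ighj4 to Ighj1 was 2.19, 0.735, 1.45 and 2.32 in tamoxifen tumors and 1.34, 1.42, 1.58 and 1.98 in vehicle tumors. Ighj4 was thus the higher of the pair in every library except tamoxifen replicate 2. Ighj2 (chromosome 12, 114667725 to 114667778) was listed at 0 in tamoxifen replicates 1, 3 and 4 and at 486 FPKM in tamoxifen replicate 2. In vehicle tumors it was listed at 0 in replicates 1 and 2 and at 551 and 832 FPKM in replicates 3 and 4. Ighj1 and Ighj4 together made up 5.42% to 41.0% of all FPKM in tamoxifen tumors and 19.4% to 54.6% in vehicle tumors. Without these 2 rows the remaining immunoglobulin rows held 0.601% to 5.83% of the rest of the table.

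**Figure D1:**
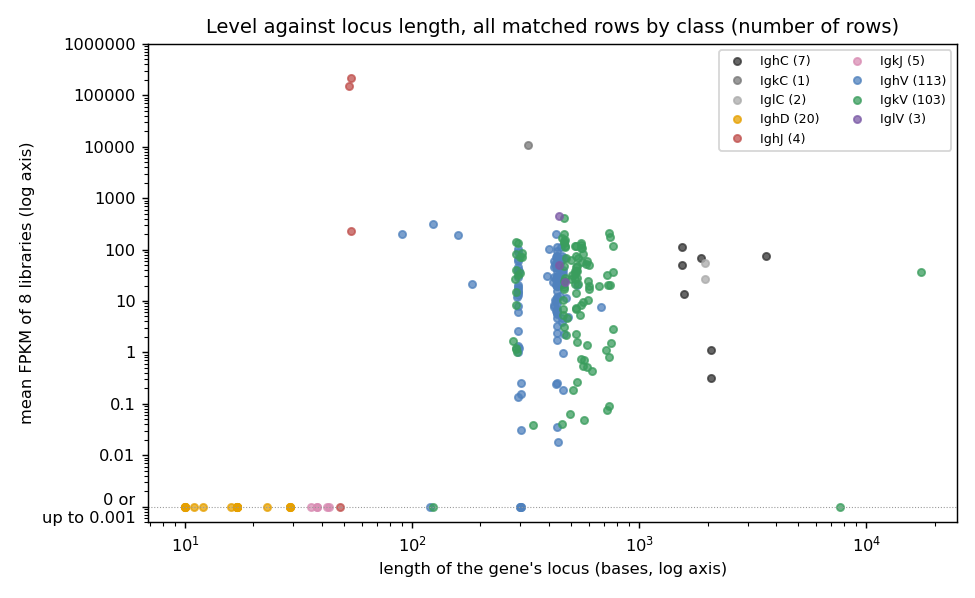
Mean FPKM over the 8 libraries (log axis) against the length of the locus in bases (log axis) for each of the 258 matching rows, colored by class, with the number of rows in the legend. All 26 rows shorter than 50 bases sit at 0 on the bottom line, and Ighj1 and Ighj4 stand above every other row.

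Among longer genes, Igkc, the kappa light chain constant region (chromosome 6, 70676429 to 70676751, 323 bases), was the highest. It had 2977, 12572, 6715 and 15891 FPKM in tamoxifen replicates 1 to 4 and 23391, 10229, 5367 and 10687 FPKM in vehicle replicates 1 to 4. Tamoxifen replicate 1 was again the lowest library and vehicle replicate 1 the highest, and the groups overlapped. The means were 9539 ± 5790 FPKM in tamoxifen tumors and 12419 ± 7701 FPKM in vehicle tumors (SD, n = 4 each). The log2 fold change was -0.45 (SE 0.60, 95% confidence interval -1.82 to 0.93, limma adjusted p = 0.701), and without tamoxifen replicate 1 it was 0.027. The interval leaves room for a difference of more than 1 on the log2 scale.

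The lambda light chain genes on chromosome 16 were far lower. Iglc2 and Iglc3, 2 lambda constant genes, averaged 43.8 ± 16.3 and 26.3 ± 20.8 FPKM in tamoxifen tumors and 68.1 ± 38.7 and 26.5 ± 10.02 FPKM in vehicle tumors (SD, n = 4 each). Their sum was 2.52%, 0.733%, 0.539% and 0.486% of Igkc in tamoxifen tumors and 0.667%, 0.694%, 0.973% and 0.930% in vehicle tumors. Tamoxifen replicate 1, which had the least Igkc, thus had the highest lambda to kappa ratio of the 8 libraries. Of the 50-base stretches in Iglc2 and Iglc3, 7.65% and 10.67% also occur in 1 other immunoglobulin gene, so reads could be divided between such copies.

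Of the heavy constant genes, the IgG genes had higher group means after tamoxifen, while IgM and IgE had lower ones, and none passed the test. Ighg3 (IgG3; chromosome 12, 114597876 to 114599443) had 49.7, 4.65, 9.35 and 19.8 FPKM in tamoxifen tumors and 5.93, 1.97, 3.65 and 12.1 FPKM in vehicle tumors. Tamoxifen replicate 1, the library with the least kappa, had the most Ighg3, and the groups overlapped. Its log2 fold change of 1.41 (SE 0.69, limma adjusted p = 0.277) was the highest of all tested immunoglobulin genes. Ighg1 (IgG1; 114567187 to 114568734) had 35.1, 134, 10.02 and 91.6 FPKM in tamoxifen tumors and 35.8, 4.63, 11.8 and 85.8 FPKM in vehicle tumors (log2 fold change 1.11, SE 1.00, adjusted p = 0.549). High and low Ighg1 libraries occurred in both groups.

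Ighg2b (IgG2b; 114544600 to 114546144) had 139, 98.9, 78.4 and 231 FPKM in tamoxifen tumors and 83.3, 18.3, 44.2 and 225 FPKM in vehicle tumors (log2 fold change 0.99, SE 0.70, limma adjusted p = 0.445). Ighg2c (IgG2c, the subclass that C57BL/6 mice make in place of IgG2a; 114523536 to 114527141) had 56.4, 46.3, 85.5 and 189 FPKM in tamoxifen tumors and 97.95, 22.5, 28.8 and 75.9 FPKM in vehicle tumors (log2 fold change 0.77, SE 0.57, adjusted p = 0.475). For both genes the highest tamoxifen library was replicate 4 and the lowest vehicle library replicate 2. Of the 50-base stretches in the transcripts of these 2 genes, 4.15% and 5.49% also occur in at least 1 other immunoglobulin gene.

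Ighm (IgM; chromosome 12, 114659078 to 114660941) had 63.3, 74.3, 29.0 and 67.4 FPKM in tamoxifen tumors and 59.7, 37.9, 89.5 and 133 FPKM in vehicle tumors. Vehicle replicates 3 and 4 were above every tamoxifen library, and vehicle replicates 1 and 2 lay among them (log2 fold change -0.38, SE 0.42, limma adjusted p = 0.632). Ighe (IgE), summed over its 2 rows, was near the lowest level tested, at 0.0765 to 2.20 FPKM in tamoxifen tumors and 0.793 to 2.96 FPKM in vehicle tumors.

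As a share of the 6 heavy constant genes analysed, Ighm made up 18.4%, 20.6%, 13.6% and 11.2% in tamoxifen tumors and 21.04%, 43.3%, 50.1% and 24.95% in vehicle tumors. Every tamoxifen share was below every vehicle share, with 20.6% next to 21.04% at the boundary. This was 1 of 3 such separations among 26 library measures computed, and it was not tested because the measure was built from genes chosen with earlier results known. Ighg2b held 27.5% to 40.4% in tamoxifen tumors and 20.9% to 42.0% in vehicle tumors. Ighg1 reached 37.3% in tamoxifen replicate 2 and Ighg3 14.5% in tamoxifen replicate 1. The ratio of Igkc to the summed heavy constant genes was 8.67, 34.9, 31.5 and 26.4 in tamoxifen tumors and 82.5, 117, 30.03 and 19.98 in vehicle tumors. These shares leave out IgA and IgD, so they describe IgM, IgE and the IgG subclasses only. The heavy sum in the ratio leaves out IgA and IgD as well.

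**Figure D2:**
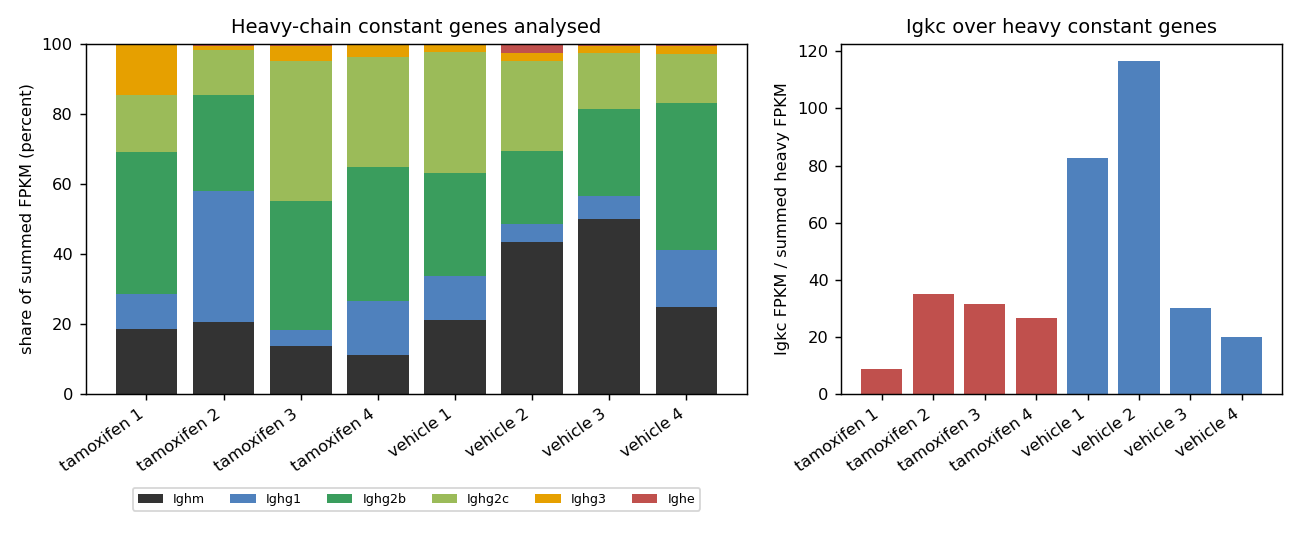
Left, each heavy constant gene's percent of the summed FPKM of the 6 genes analysed, for tamoxifen replicates 1 to 4 and then vehicle replicates 1 to 4. Right, the ratio of Igkc to that sum; the Ighm share is 11.2% to 20.6% in tamoxifen and 21.04% to 50.1% in vehicle libraries, and the ratio runs from 8.67 to 34.9 in tamoxifen and from 19.98 to 117 in vehicle libraries.

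Kappa V segments were led by Igkv10-96 (chromosome 6, 68581957 to 68582424), which had 74.6, 369, 264 and 500 FPKM in tamoxifen tumors and 934, 634, 272 and 277 FPKM in vehicle tumors (log2 fold change -0.90, SE 0.64, limma adjusted p = 0.446). It was the leading kappa V segment in 5 of the 8 libraries. Igkv1-117 (68071085 to 68071821) led in tamoxifen replicates 1 and 2 and had 94.5, 477, 104 and 326 FPKM in tamoxifen tumors and 316, 102, 90.4 and 210 FPKM in vehicle tumors. Igkv4-53, named after its values were seen, led in vehicle replicate 4. Igkv14-111 (68206398 to 68206863) averaged 163 ± 127 FPKM in tamoxifen and 234 ± 187 FPKM in vehicle tumors, and Igkv1-110 (68220521 to 68221261) 130 ± 108 FPKM in tamoxifen and 214 ± 184 FPKM in vehicle tumors (SD, n = 4 each). All 4 segments overlapped between groups.

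Of the 4 heavy V segments with the highest means, 3 had rows under 200 bases. Ighv1-2 (chromosome 12, 115707316 to 115707438) had 30.3, 4.82, 234 and 566 FPKM in tamoxifen tumors and 541, 433, 158 and 602 FPKM in vehicle tumors (log2 fold change -2.46, SE 1.31, limma adjusted p = 0.308). Ighv1-62-1 (116625110 to 116625199) was listed at 0 in tamoxifen replicates 1 and 2 and had 147 and 324 FPKM in replicates 3 and 4. In vehicle tumors Ighv1-62-1 had 392, 546, 139 and 41.7 FPKM. Ighv3-2 (115272144 to 115272302) had 61.4, 3.54, 74.2 and 264 FPKM in tamoxifen tumors and 379, 250, 122 and 356 FPKM in vehicle tumors. Tamoxifen replicates 1 and 2 were the lowest 2 libraries for these 3 segments, and the groups overlapped in each.

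The rows of Ighv1-2, Ighv1-62-1 and Ighv3-2 are 123, 90 and 159 bases long. The 4 heavy V rows under 200 bases had a median level of 194 FPKM, and the other 102 a median of 20.9 FPKM. The fourth short row, Ighv1-73 (183 bases), had a mean of 21.2 FPKM, close to that of the longer rows. Ighv1-2, Ighv3-2 and Ighv1-73 are typed as V pseudogenes in GENCODE M21. Ighv3-6 (115526363 to 115526793, 431 bases), the highest heavy V row of ordinary length, had 13.7, 341, 114 and 207 FPKM in tamoxifen tumors and 532, 148, 72.6 and 156 FPKM in vehicle tumors. Its extremes were tamoxifen replicate 1 and vehicle replicate 1 once more (log2 fold change -0.73, SE 0.98, adjusted p = 0.698), and without tamoxifen replicate 1 the value was 0.21.

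None of the 3 lambda V segments passed the test. Iglv1 (chromosome 16, 19085110 to 19085553) had 218, 804, 441 and 352 FPKM in tamoxifen tumors and 1096, 179, 131 and 348 FPKM in vehicle tumors (log2 fold change 0.40, SE 0.66, limma adjusted p = 0.763). The group means were close, at 454 ± 251 FPKM in tamoxifen and 439 ± 448 FPKM in vehicle tumors (SD, n = 4 each). Iglv2 averaged 46.8 ± 23.3 FPKM in tamoxifen and 54.8 ± 35.5 FPKM in vehicle tumors. Iglv3 averaged 11.2 ± 6.30 FPKM in tamoxifen and 35.2 ± 36.6 FPKM in vehicle tumors (log2 fold change -1.07, adjusted p = 0.451).

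**Figure D3:**
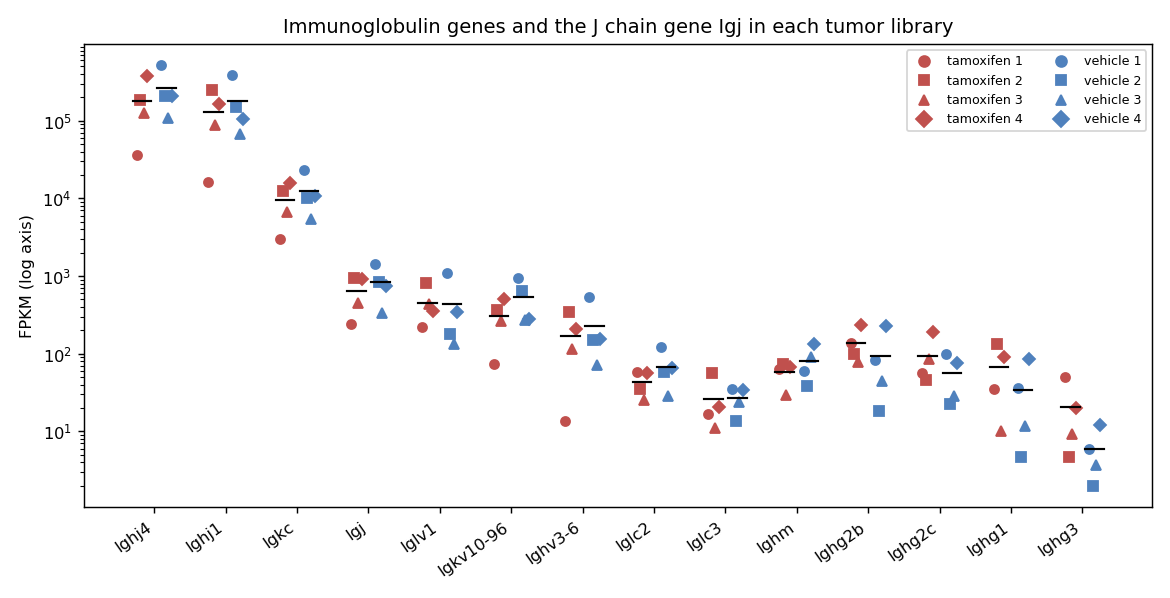
FPKM (log axis) of immunoglobulin genes and of the J chain gene Igj in each library, tamoxifen at the left and vehicle at the right of each gene, with 1 symbol per replicate and a bar at the group mean. Tamoxifen replicate 1 is the lowest library for Ighj4, Ighj1, Igkc, Igj, Igkv10-96 and Ighv3-6, but the highest for Ighg3.

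Over the whole family, 0 of the 200 symbols with a mean of at least 1 FPKM passed limma's threshold (adjusted p under 0.05), where 5.45% of all 15023 tested genes did. The lowest adjusted p of an immunoglobulin gene was 0.126. At an unadjusted p under 0.05 there were 6 of the 200 (3.00%), against 22.4% of all tested genes, and the tamoxifen and vehicle values overlapped for all 200, whereas 15.1% of all tested genes had no overlap. The 6, named after their values were seen, were Ighv1-47, Ighv2-4, Ighv5-9, Igkv4-56, Igkv4-80 and Igkv5-45, all with lower means in tamoxifen tumors. Ighv1-47 had 3.18, 10.6, 15.1 and 10.3 FPKM in tamoxifen tumors and 230, 219, 26.7 and 13.2 FPKM in vehicle tumors (log2 fold change -2.79, SE 0.94, adjusted p = 0.126). Its vehicle mean rested on replicates 1 and 2, and vehicle replicate 4 lay among the tamoxifen values. The other 21 symbols had means under 1 FPKM and were not tested.

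Of the 200 log2 fold changes, 162 (81%) were negative, against 49.4% of all tested genes, with a median of -0.55 against 0.01. They ran from -3.68 (Ighv1-62-1) to 1.41 (Ighg3). The members share cells and reads, so this count is not 200 independent observations. Their median SE was 0.781, against 0.181 for all tested genes. By class, the median was 0.88 for heavy constant genes (4 of 6 positive), -0.74 for heavy J, -0.56 for heavy V (82 of 98 negative) and -0.57 for kappa V (70 of 87 negative). It was -0.36 for the lambda constant genes and -0.19 for lambda V.

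The negative median rested largely on 2 libraries. Tamoxifen replicate 1, whose Etv1 level lay in the vehicle range, was the lowest library for 145 of the 200 genes and vehicle replicate 1 the highest for 95. Relative to each gene's mean log2 level over the 8 libraries, the median log2 deviation was -1.88 in tamoxifen replicate 1 and 1.41 in vehicle replicate 1, and between -0.58 and 0.53 in the other 6. Without tamoxifen replicate 1, 105 of 200 fold changes were negative with a median of -0.07. Without vehicle replicate 1, 123 of 196 were negative with a median of -0.19. With libraries weighted by quality the median was -0.22 (122 of 200 negative), and without tamoxifen replicate 4 it was -0.82. In bulk tissue, fewer cells of a type and less RNA per cell cannot be told apart.

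**Figure D4:**
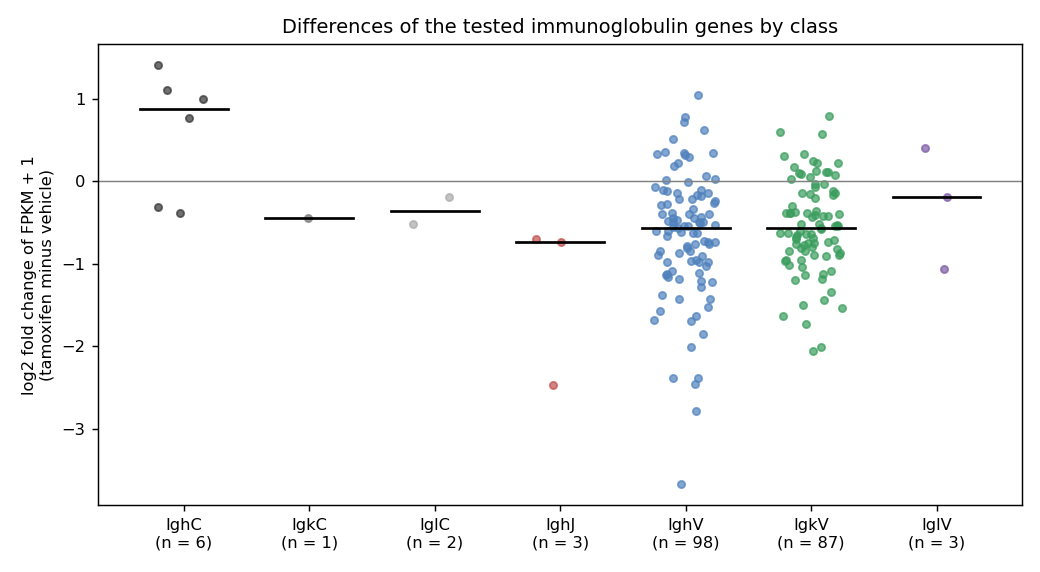
Log2 fold change of FPKM + 1 (tamoxifen minus vehicle) of each tested immunoglobulin gene by class, 1 point per gene and a bar at the class median, with the number of genes under each class. Heavy and kappa V genes center below 0 (medians -0.56 and -0.57), and 4 of the 6 heavy constant genes lie above it.

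Summed by class, the levels overlapped between groups throughout. Heavy V segments summed to 661, 4430, 2363 and 4952 FPKM in tamoxifen tumors and 8256, 4089, 2011 and 3836 FPKM in vehicle tumors. Kappa V segments summed to 1118, 5403, 2728 and 6768 FPKM in tamoxifen tumors and 10617, 4891, 2322 and 5136 FPKM in vehicle tumors. The ratio of the tamoxifen to the vehicle mean was 0.682 for heavy V, 0.697 for kappa V, 0.768 for Igkc, 0.741 for lambda constant, 0.968 for lambda V and 1.40 for heavy constant genes.

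The V sums moved with Igkc. Between the lowest and the highest library, Igkc ranged 7.86-fold, the kappa V sum 9.50-fold and the heavy V sum 12.5-fold, while their ratios to Igkc ranged 1.28-fold and 1.80-fold. Kappa V over Igkc was 0.375, 0.430, 0.406 and 0.426 in tamoxifen tumors and 0.454, 0.478, 0.433 and 0.481 in vehicle tumors. Heavy V over Igkc was 0.222, 0.352, 0.352 and 0.312 in tamoxifen tumors and 0.353, 0.400, 0.375 and 0.359 in vehicle tumors. In both ratios every tamoxifen library was below every vehicle library, with the nearest values 0.430 and 0.433 for kappa V and 0.352 and 0.353 for heavy V. These are the other 2 of the 3 separations among 26 measures, and they were likewise not tested. The heavy V sum includes the 4 rows under 200 bases. Of these, Ighv1-2, Ighv1-62-1 and Ighv3-2 had their lowest values in tamoxifen replicates 1 and 2. In tamoxifen replicate 2 these 3 rows had 4.82, 0 and 3.54 FPKM, and in vehicle replicate 1 they had 541, 392 and 379 FPKM. Leaving them out would lower the ratio far more in vehicle replicate 1 (0.353) than in tamoxifen replicate 2 (0.352). The groups would then overlap, so the heavy V separation depends on the short rows. The exact ratios without them were not computed.

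Many V segments had values of 1 FPKM or more in every tumor, rows typed as pseudogenes among them. At 1 FPKM or more there were 70, 89, 95 and 93 heavy V segments in tamoxifen tumors and 98, 93, 94 and 91 in vehicle tumors. For kappa V the numbers were 67, 84, 82 and 83 in tamoxifen tumors and 87, 76, 78 and 80 in vehicle tumors. Tamoxifen replicate 1, with the lowest sums, had the fewest of each. The effective number of segments (the exponential of the Shannon entropy of their FPKM shares, equal to the number of segments if all had the same share) was 34.8 to 54.5 for heavy V in tamoxifen tumors and 38.7 to 56.9 in vehicle tumors. For kappa V it was 42.3 to 48.3 in tamoxifen tumors and 38.1 to 47.0 in vehicle tumors. The leading segment held 9.90% to 11.7% of heavy V in tamoxifen tumors and 6.56% to 15.7% in vehicle tumors. It was Ighv1-2, a row of 123 bases, in tamoxifen replicates 3 and 4 and vehicle replicates 1, 3 and 4. In vehicle replicate 2 it was Ighv1-62-1, a row of 90 bases. The leading shares and effective numbers of heavy V thus include short rows, whose FPKM can be inflated.

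Some segments held a large share of their class in a single tumor. Ighv1-54 held 11.7% of heavy V in tamoxifen replicate 1, and no more than 1.84% in any other library. Ighv2-3 held 7.10% in tamoxifen replicate 2 and no more than 2.04% elsewhere. Igkv4-57-1 and Igkv2-112 held 6.58% and 5.46% of kappa V in tamoxifen replicate 1, and no more than 0.773% and 0.675% in any other library. These segments were named after their values were seen. They stand out by share, and tamoxifen replicate 1 had the lowest V sums. By level, Ighv1-54 had 77.6 FPKM in tamoxifen replicate 1 and 152 FPKM in vehicle replicate 1. Igkv2-112 had 61.0 FPKM in tamoxifen replicate 1 and 54.6 FPKM in vehicle replicate 1. Igkv4-57-1 and Ighv2-3 were highest by level in the same library as by share. In all, 8 of 98 tested heavy V and 8 of 87 tested kappa V segments had more than 50% of their summed shares in 1 library. For heavy V, 5 of the 8 fell in tamoxifen replicate 2, and for kappa V, 4 of the 8 in tamoxifen replicate 1. Ighv1-76, the leading heavy V segment of tamoxifen replicate 2 with 10.6%, was not among them, since it also held 5.82% in vehicle replicate 3.

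The order of V segments was shared between tumors to a varying degree. Across the 106 heavy V segments, the Spearman correlation between libraries was 0.374 to 0.801 within tamoxifen tumors (6 pairs), 0.790 to 0.899 within vehicle tumors (6 pairs) and 0.381 to 0.895 between groups (16 pairs). Across the 100 kappa V segments it was 0.738 to 0.911 within tamoxifen, 0.789 to 0.920 within vehicle and 0.731 to 0.938 between groups. These correlations are across segments, which share reads and are not independent.

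By family, Ighv1, the largest mouse heavy V family, held 48.4 ± 6.03% of heavy V in tamoxifen tumors and 51.5 ± 5.75% in vehicle tumors (SD, n = 4 each). Ighv3 held 11.5 ± 2.04% in tamoxifen and 13.6 ± 2.41% in vehicle tumors. Among kappa families, Igkv4 held 12.6 ± 2.36% and Igkv1 13.98 ± 3.79% in tamoxifen tumors, and 14.5 ± 2.64% and 11.2 ± 3.07% in vehicle tumors. For these 4 families the difference was smaller than the SD of at least 1 of the groups. Of all 34 V families, 3 differed by more than both SDs: Igkv8 (11.9 ± 2.25% in tamoxifen and 8.42 ± 2.81% in vehicle tumors), Igkv15 (2.96 ± 0.667% in tamoxifen and 3.76 ± 0.712% in vehicle tumors) and Igkv19 (2.79 ± 0.456% in tamoxifen and 3.61 ± 0.805% in vehicle tumors). The groups overlapped in all families except Ighv7, which held 1.86%, 5.36%, 1.37% and 1.58% in tamoxifen tumors and 0.646%, 0.670%, 1.28% and 0.689% in vehicle tumors. No family share was tested. Shares by position in the locus overlapped between groups. The heavy V segments farthest from Ighj4 (1563 to 2572 kb away) held 31.5 ± 0.492% in tamoxifen tumors and 30.7 ± 4.47% in vehicle tumors. The kappa V segments farthest from Igkc (1919 to 3171 kb away) held 47.3 ± 2.70% in tamoxifen tumors and 47.9 ± 5.36% in vehicle tumors.

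The similarity of V segments limits these values. Of the 222 rows, 180 had at least 1 stretch of 50 bases in their GENCODE M21 transcripts that also occurs in another immunoglobulin gene. The median share of such stretches was 22.7% for heavy V (up to 92.5%) and 24.5% for kappa V (up to 74.3%), and it was 0 for Igkc and Ighm. Nothing in the sources used here says how the authors' counting divided reads between such copies, so the level of a single V segment is uncertain.

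Genes that work with immunoglobulin were read from the same fit, in a list of 24 for assembly, transport, recombination and Fc receptors. A row was found for 22, of which 14 were tested and 0 passed in either direction, with 2 at an unadjusted p under 0.05. Igj had 239, 939, 451 and 927 FPKM in tamoxifen tumors and 1424, 831, 337 and 740 FPKM in vehicle tumors (log2 fold change -0.41, SE 0.55, limma adjusted p = 0.694). Pigr, which carries polymeric IgA and IgM across epithelium, had 64.9, 97.2, 35.9 and 126 FPKM in tamoxifen tumors and 138, 197, 117 and 191 FPKM in vehicle tumors. Only tamoxifen replicate 4 reached into the vehicle range (log2 fold change -1.09, SE 0.37, adjusted p = 0.1304). Fcgr2b, the inhibitory receptor for IgG, had 92.9, 166, 43.0 and 54.5 FPKM in tamoxifen tumors and 38.7, 36.3, 21.8 and 36.4 FPKM in vehicle tumors, with no overlap (log2 fold change 1.23, SE 0.40, adjusted p = 0.115).

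Among the other receptors, Fcgr1, the high-affinity IgG receptor, averaged 16.2 ± 6.84 FPKM in tamoxifen and 23.2 ± 5.45 FPKM in vehicle tumors (SD, n = 4 each; limma adjusted p = 0.299). Fcgr3, an activating IgG receptor, had failed estimates in tamoxifen replicate 1 and vehicle replicate 4, which were dropped, and averaged 87.6 ± 48.4 FPKM in tamoxifen and 53.8 ± 15.4 FPKM in vehicle tumors (n = 3 each; adjusted p = 0.419). Fcer2a, the low-affinity IgE receptor of B cells, had 0.163 to 0.821 FPKM in tamoxifen and 0.0452 to 5.96 FPKM in vehicle tumors (adjusted p = 0.316). Ung, a uracil glycosylase that acts in class switching, averaged 2.21 ± 1.09 FPKM in tamoxifen and 3.13 ± 0.572 FPKM in vehicle tumors (adjusted p = 0.359). Rag2, needed to join V, D and J segments, was listed at 0 in all 8 libraries, and Rag1 did not exceed 0.00418 FPKM.

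Igkc followed the J chain gene across the tumors. Over the 8 libraries, Pearson's r of their log2 levels was 0.983 (exact 2-sided permutation p = 0.000198, adjusted over 4 relations 0.000794) and Spearman's rho was 0.952 (exact permutation p = 0.00114, adjusted 0.00456). Without the 2 libraries farthest from the median of Igj, tamoxifen replicate 1 and vehicle replicate 3, r was 0.959. Within the tamoxifen libraries r was 0.989 and within the vehicle libraries 0.977, over 4 libraries each. The ratio of Igkc to Igj was 12.4, 13.4, 14.9 and 17.1 in tamoxifen tumors and 16.4, 12.3, 15.9 and 14.5 in vehicle tumors, although each gene ranged 5.95-fold or more. The relation with Igkc was added after the data were seen, in place of Igha.

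The other 3 relations did not pass. Igkc against Cd79a, which encodes a signalling component of the B cell receptor, gave r = 0.214 (exact permutation p = 0.614, adjusted 0.819) and rho = 0.0952 (exact permutation p = 0.840, adjusted 0.882). Without the farthest 2 libraries r was 0.390. Ighm against Cd79a gave r = 0.560 (exact permutation p = 0.147, adjusted 0.293) and rho = 0.476 (exact permutation p = 0.243, adjusted 0.486), and 0.517 without the farthest 2. Ighm against Igj gave r = 0.0309 (exact permutation p = 0.953, adjusted 0.953) and rho = -0.0714 (exact permutation p = 0.882, adjusted 0.882), and 0.381 without the farthest 2.

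**Figure D5:**
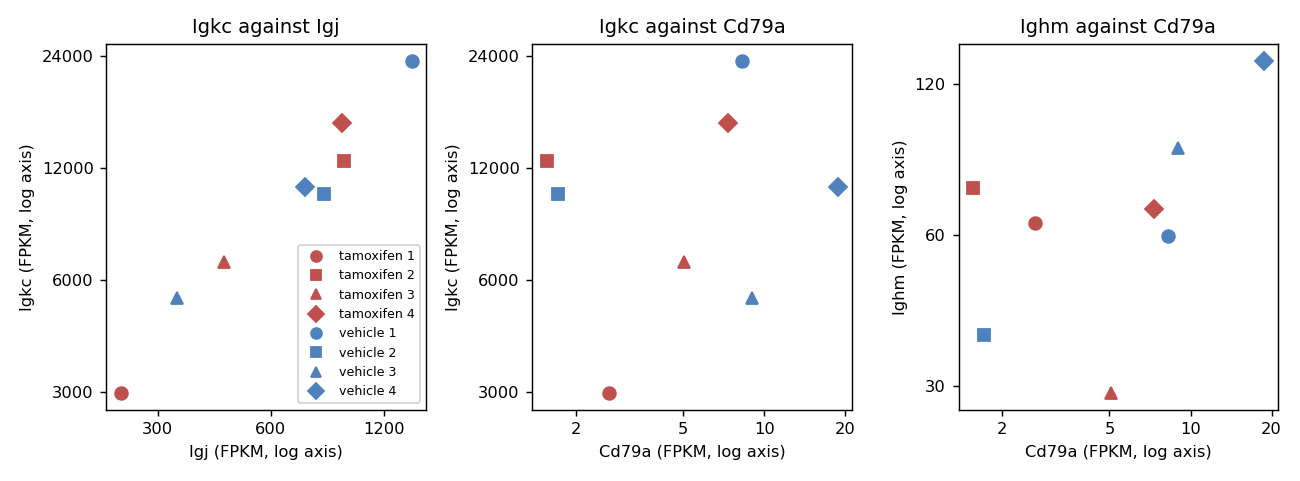
FPKM of Igkc against Igj (left) and against Cd79a (middle), and of Ighm against Cd79a (right), all on log axes, 1 symbol per library. Igkc and Igj lie along a line (r = 0.983) on which both groups are interleaved, and the other panels show wider scatter (r = 0.214 and 0.560).

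Cell type markers stand beside these values. The tested plasma cell markers, 7 of them, had 0 calls and summed to 151 to 238 FPKM in tamoxifen and 144 to 232 FPKM in vehicle tumors. Xbp1, a secretory factor that other cells also express, and Sdc1, which epithelium also expresses, made up most of that sum. Sdc1 had 59.4 to 141 FPKM in tamoxifen and 25.8 to 57.7 FPKM in vehicle tumors, without overlap (limma adjusted p = 0.120). The more restricted Tnfrsf17 had 0.951, 1.94, 1.08 and 2.24 FPKM in tamoxifen tumors and 3.54, 1.99, 1.09 and 2.65 FPKM in vehicle tumors, lowest in tamoxifen replicate 1 and highest in vehicle replicate 1 as Igkc was. Derl3 and Xbp1 had the same extremes. Irf4 and Fkbp11 were also lowest in tamoxifen replicate 1, but highest in vehicle replicate 4 and tamoxifen replicate 4. Prdm1 was lowest in vehicle replicate 3 and highest in tamoxifen replicate 2. Of the 7 fold changes, 5 were negative and 2 positive (Sdc1 and Prdm1). The 8 B cell markers summed to 18.9 to 39.2 FPKM in tamoxifen and 8.68 to 122 FPKM in vehicle tumors, and all 7 tested had negative fold changes with 0 calls. None of the markers that define B cells was at 0 in every library, and Cd79a was lowest in tamoxifen replicate 2 (1.56 FPKM) and highest in vehicle replicate 4 (18.7 FPKM).

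All 4 T cell markers had negative fold changes, and 2 passed the threshold, Cd3e and Cd8a (limma adjusted p = 0.00653 and 0.0161). Cd3g (log2 fold change -0.85, limma adjusted p = 0.0547) and Cd4 (-0.89, adjusted p = 0.0804) did not pass. The 4 epithelial markers, Pigr among them, summed to 352 to 918 FPKM in tamoxifen and 285 to 502 FPKM in vehicle tumors. There were 0 calls, but all 4 had an unadjusted limma p under 0.05, as 22.4% of all tested genes did. Of their 4 fold changes 3 were positive, and Pigr had the negative one. The part of these cell types in the immunoglobulin values was not tested. Kit, the receptor mutated in the tumor cells, had 386 to 567 FPKM in tamoxifen and 542 to 892 FPKM in vehicle tumors. Its log2 fold change was -0.75 (limma adjusted p = 0.0674). The 4 tumor cell markers, Kit, Ano1, Etv1 and Gpr20, all had negative fold changes with 0 calls, and 3 had an unadjusted p under 0.05. Absolute read depth is unknown, since only FPKM were used.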

How the data were processed

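Explanted tumors were homogenized in Trizol and total RNA was sequenced, per the labels' protocols. The authors deposited FPKM per gene and library with a status beside each value, per the file headers, which are those of Cuffdiff output. Per the submitters' processing notes, STAR 2.3, Cufflinks, Cuffdiff and the build mm9 were used. For the annotation release, strand, read length, depth and treatment of reads with several matches, nothing is given in the sources used here. Library columns were matched by identifier, with 0 left unmapped, and groups came from the titles. Coordinates count from 1.

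The 178 failed estimates in the table, 0 of them in immunoglobulin rows, were treated as missing, and rows of 1 symbol were summed. Genes with a mean of at least 1 FPKM and 2 estimates per group were tested on log2(FPKM + 1) with limma 3.58.1 in R 4.3.3 (mean-variance trend, 2-sided). P-values were adjusted by Benjamini-Hochberg over all 15023 genes, with a threshold of 0.05. A fold change on this scale understates low genes. Correlations used exact permutations (scipy 1.17.1). The fit was checked on simulated data. Transcript sequences and types came from GENCODE M21 and matched all 222 rows, 91 by identifier and the rest by symbol.

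The members, the lists and the measures were chosen with earlier results of these data known. Named genes were all constant and J rows, the 4 highest V segments of each locus, any member past the threshold, and from the pathway list the 6 lowest p plus Igj, Pigr and Cd79a (another gene of that rule is not reported here); D segments were all at 0. Alternatives were a pseudocount of 0.1 or 0.25 FPKM, removing the filter or raising it to 5 FPKM, 2 scalings, failed estimates at 0, a replicate block, the range of sample identifiers as a covariate, quality weights and leaving out each library.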

Additional observations from a re-analysis of the deposited data

Results flagged for a closer look

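A test for a value standing apart from the other 3 of its group was made in 114 groups of 4 libraries, of which chance marks about 1 in 20, and 6 were marked. Ighj2 had 486 FPKM in tamoxifen replicate 2 and was listed at 0 in the other tamoxifen libraries. Fcgr2b had 21.8 FPKM in vehicle replicate 3, against 36.3 to 38.7 FPKM in the other vehicle libraries. Ighe made up 2.54% of the heavy constant genes analysed in vehicle replicate 2, against 0.294% to 0.554% in the other vehicle libraries. The lambda to kappa constant ratio was 2.52% in tamoxifen replicate 1, against 0.486% to 0.733% in the other tamoxifen libraries. The number of kappa V segments at 1 FPKM or more was 67 in tamoxifen replicate 1, against 82 to 84 in the others of that group. The effective number of kappa V segments was 38.1 in vehicle replicate 2, against 45.9 to 47.0 in the others of that group.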

How the results depend on the processing

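The count of all genes called was 534 with a mean of at least 5 FPKM and 268 to 856 when 1 library was left out, against 819. The replicate block called 252 genes and 0 immunoglobulin genes. The correlation of same-numbered deviations was -0.156, -0.00211, 0.145 and 0.0629, and replicate 3 alone correlated best with its own number. These values cannot show whether same-numbered samples were paired. Immunoglobulin genes called stayed at 0 under every alternative that kept all libraries and were 0 to 1 when 1 was left out: Igkv5-45 without tamoxifen replicate 2 (log2 fold change -2.18, limma adjusted p = 0.0295) and Igkv10-95 without tamoxifen replicate 4 (-1.89, adjusted p = 0.0496). Recomputed fold changes of named genes kept direction and side of the threshold in 540 cases and reversed in 14, all of genes that had not passed. Leaving out 1 library gave -1.22 to 0.10 for Ighj1, -0.78 to 0.027 for Igkc, -0.64 to 0.12 for Iglc3, -1.30 to 0.21 for Ighv3-6, -0.088 to 0.69 for Igkv1-117, -0.011 to 1.01 for Iglv1 and -0.48 to 0.22 for Iglv2. Quality weights gave 0.16 for Iglc3, 0.012 for Ighv3-6, 0.023 for Igkv14-111, 0.11 for Iglv2 and 0.011 for Igj, and the identifier range as a covariate gave 0.072 for Iglv2. The cause was not tested. The ratio of the Ighe share, tamoxifen over vehicle, was 0.744 without vehicle replicate 2, against 0.334. Ighm with Cd79a had r = 0.802 on unlogged FPKM, and Ighm with Igj r = 0.381 without its 2 farthest libraries. Class sums moved by less than 1 SD under each alternative run. Depth is unknown, so no limit from counting was computed.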
